A study of Mus musculus with 6 samples.

Results

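Keratins are the intermediate filament proteins of epithelial cells, and their transcripts were followed here in RNA sequencing libraries of macrophages sorted from mouse mammary tumours. The genes were all protein-coding entries of the deposited table whose symbol is Krt followed by digits alone, which gave 47 of 35275 genes. Within them a luminal set (Krt7, Krt8, Krt18 and Krt19) and a basal set (Krt5, Krt14, Krt15 and Krt17) were kept apart. The libraries came from female FVB/NJ mice of 65 days that carried MMTV-PyMT, in which a mammary promoter drives the polyoma middle T oncogene in the mammary epithelium, and both alleles of Atg5 flanked by loxP sites. The 3 mice labelled Atg5 KO also carried LysMcre, which expresses Cre recombinase from the Lyz2 locus in myeloid cells, and the 3 mice labelled Atg5 WT carried no Cre. Whether Cre acted in epithelial cells was not measured. The controls do not separate the presence of Cre, or the low Lyz2 described below, from the loss of Atg5. The sorted cells were CD11b+ and F4/80+ and lacked Ly6G and Ly6C. The comparison asked how the 2 genotypes differ, with 1 library per mouse.

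A keratin filament is built from obligate pairs of a type I (acidic) and a type II (basic) protein. Simple and glandular epithelia, such as the luminal cells that line mammary ducts, use Krt8 with Krt18 and add Krt7 and Krt19, while basal cells of the mammary gland and of skin use Krt5 with Krt14. Macrophages build their filaments from vimentin, so keratin transcripts are commonly read as epithelial RNA, and in mammary tumours of this model Krt14 has been described in tumour cells at invasive borders.

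Of the 47 genes, 25 belonged to type I, 21 to type II and 1, Krt222, to neither by its number. All of those on chromosome 11 other than Krt222 were type I and all type II genes lay on chromosome 15 (mm10). The exception was Krt18, a type I gene on chromosome 15 (102028216 to 102032026, plus strand), whose nearest end lay 23.9 kb from Krt8 (101996711 to 102004342, minus strand).

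The promoter windows of 3 genes are shown because Krt8 and Krt18 are neighbours of the luminal set and Krt5 is the type II gene of the basal set. Each window holds 250 bases before and 50 after the start in RefSeq on GRCm38.p6, and 34 of the 47 genes had an entry. Capitals mark TATAAA on either strand, including overlapping matches.
Krt8, chr15:102004293-102004592, minus strand: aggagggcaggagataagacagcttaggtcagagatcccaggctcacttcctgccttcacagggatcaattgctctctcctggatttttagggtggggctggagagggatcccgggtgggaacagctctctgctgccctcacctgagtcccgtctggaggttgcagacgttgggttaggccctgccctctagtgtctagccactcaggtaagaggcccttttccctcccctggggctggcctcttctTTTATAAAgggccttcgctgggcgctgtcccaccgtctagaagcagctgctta
Krt18, chr15:102027966-102028265, plus strand: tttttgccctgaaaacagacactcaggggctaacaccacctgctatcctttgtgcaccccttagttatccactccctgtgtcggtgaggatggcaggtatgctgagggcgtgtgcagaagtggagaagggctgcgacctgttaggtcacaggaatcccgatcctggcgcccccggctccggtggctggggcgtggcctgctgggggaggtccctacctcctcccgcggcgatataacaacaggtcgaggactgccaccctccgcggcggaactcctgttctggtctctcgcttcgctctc
Krt5, chr15:101712856-101713155, minus strand: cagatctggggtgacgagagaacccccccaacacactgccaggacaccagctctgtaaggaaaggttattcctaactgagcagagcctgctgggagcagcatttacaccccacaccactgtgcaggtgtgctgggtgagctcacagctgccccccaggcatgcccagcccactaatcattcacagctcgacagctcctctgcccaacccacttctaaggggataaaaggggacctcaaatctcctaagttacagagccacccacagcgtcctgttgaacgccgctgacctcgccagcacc
TATAAA was found in the window of Krt8, with matches beginning at -3 and -1 from the RefSeq start, and not in those of Krt18 and Krt5. It was present in 18 of 35 keratin windows (51.4%) and in 13.6% of all 32851 windows in the table. GGGCGG, the core of a GC box, was in none of the 3, in 5.71% of keratin windows and in 35.7% of all windows. The window of Krt7, also of the luminal set and not shown, held 4 matches to it. TGANTCA, an AP-1 motif, was in none of the 3, in 5.71% of keratin windows and in 7.81% of all. These matches describe letters within the windows and were not related to the measured levels.

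The values are FPKM, reads scaled by gene length and by the counted reads of the library, and the libraries held 18770262 to 21173301 recovered reads. Lyz2, at the Cre locus, fell to between 8.43 and 16.1 in the libraries labelled Atg5 KO from between 2060 and 6571 in those labelled Atg5 WT and was the gene that passed the test (limma-trend adjusted p = 0.0306). Gene-level Atg5 went against the label, at 5.11 to 5.28 under the Atg5 WT label and 14.0 to 17.4 under the Atg5 KO label, but it is a whole-gene value and does not check the deleted part. None of the 11 macrophage markers was at 0 in any library. Their summed FPKM was 3194 to 11155 under the Atg5 WT label and 9484 to 12024 under the Atg5 KO label. None of the 20 epithelial or 8 fibroblast genes described below was at 0 either, so presence alone does not check the label. Atg5 WT replicate 2, as labelled, combined the lowest macrophage sum with the highest luminal keratin sum, apart from the other libraries. Below, values are listed for Atg5 WT replicates 1, 2 and 3 and then for Atg5 KO replicates 1, 2 and 3, as labelled.

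Keratin RNA was present in all 6 libraries at very different levels. The summed FPKM of the 47 genes was 1082, 1860 and 243 under the Atg5 WT label and 658, 241 and 123 under the Atg5 KO label, a 15.2-fold range. The groups overlapped, since the library labelled Atg5 KO replicate 1 lay above Atg5 WT replicate 3. Krt8 and Krt18 together supplied 72.2% to 82.9% of that sum in each library. In bulk RNA such as this, fewer cells of a type and less RNA per cell cannot be told apart.

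**Figure D1:**
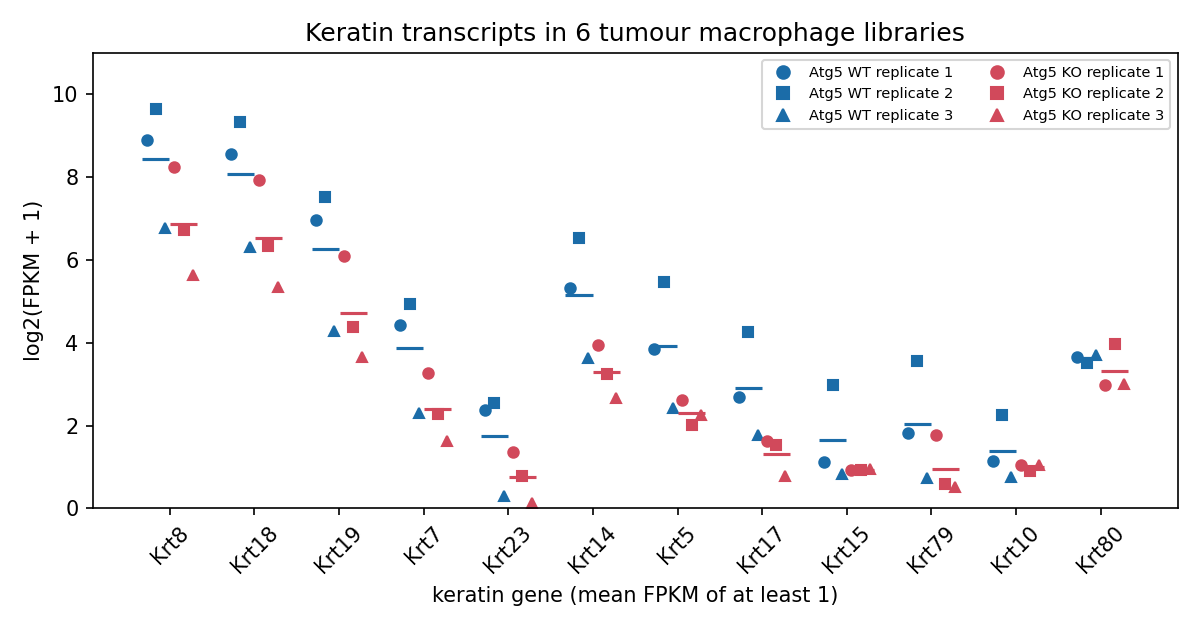
Level of each of the 12 keratin genes that averaged an FPKM of at least 1, as log2(FPKM + 1), with 1 point per library and a line at each group mean (3 libraries each). For 11 of the 12 genes the highest point is Atg5 WT replicate 2, while Krt80 keeps within a 2.11-fold range.

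Luminal keratins made up nearly all of the signal. Krt8, the type II partner of the simple epithelial pair, had an FPKM of 474, 798 and 108 against 302, 105 and 49.0. Krt18, its type I partner, had 379, 644 and 78.5 against 244, 80.1 and 39.6. In both groups a high, a middle and a low library can be seen, and the ranges overlap for both genes. Group means of Krt8 were 460 ± 345 and 152 ± 133 (SD, n = 3 each), and the log2 difference of -1.56 (SE 0.95) did not pass when adjusted over all genes (limma-trend adjusted p = 0.53). For Krt18 the means were 367 ± 283 and 121 ± 108 and the log2 difference -1.53 (SE 0.98, limma-trend adjusted p = 0.534).

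Krt19, the smallest keratin and a partner of Krt8 in ducts, had an FPKM of 124, 184 and 18.6 against 67.9, 19.8 and 11.6. Krt7, a type II keratin of ductal epithelia, had 20.5, 29.4 and 3.92 against 8.71, 3.89 and 2.06. Like Krt8 and Krt18, both genes were highest in Atg5 WT replicate 2 and lowest in Atg5 KO replicate 3, with overlapping groups. Their log2 differences were -1.55 (SE 1.02) and -1.49 (SE 0.78), with limma-trend adjusted p of 0.539 and 0.507. Krt23, another type I keratin of simple epithelia, had 4.22, 4.87 and 0.238 against 1.57, 0.709 and 0.0963, the last from 3 reads, and its log2 difference of -0.99 did not pass (limma-trend adjusted p = 0.541).

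Ratios between luminal keratins varied far less than their levels, which ranged 14.3-fold to 16.3-fold across the libraries. Krt8 stood at 1.24 to 1.38 times Krt18 across the 6 libraries, Krt19 at 0.237 to 0.326 times Krt18, and Krt7 at 0.0288 to 0.0432 times Krt8. Summed over all members, type II FPKM divided by type I FPKM was 0.94, 0.938 and 1.15 under the Atg5 WT label and 0.982, 1.13 and 1.05 under the Atg5 KO label. The types that pair in the filament thus had similar summed FPKM in each library. These ratios are descriptions and were not tested.

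Basal keratins were present at lower summed levels than luminal keratins in every library. Krt14, the type I keratin of basal cells, had an FPKM of 39.0, 91.7 and 11.3 against 14.5, 8.46 and 5.35. Krt5, its type II partner, had 13.4, 43.2 and 4.33 against 5.18, 3.06 and 3.81. The library labelled Atg5 KO replicate 1 lay above Atg5 WT replicate 3 for both genes, so the groups overlapped. Means of Krt14 were 47.4 ± 40.9 and 9.43 ± 4.63, a 5.02-fold ratio, with a log2 difference of -1.87 (SE 0.77) that did not pass (limma-trend adjusted p = 0.492). For Krt5 the log2 difference was -1.60 (SE 0.75, limma-trend adjusted p = 0.494).

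Krt17, a type I keratin of basal cells and skin appendages that is induced by stress, had an FPKM of 5.48, 18.2 and 2.40 against 2.07, 1.87 and 0.713. It was the 1 gene of the 12 past the filter whose groups did not overlap, where 9.41% of all tested genes were lower without overlap. Its log2 difference was -1.60 (SE 0.65), with an unadjusted p of 0.0492 in the limma-trend fit and an adjusted p of 0.492. Krt15, a type I keratin of basal and hair follicle stem cells, had 1.17, 6.86 and 0.783 against 0.889, 0.908 and 0.916. Outside Atg5 WT replicate 2 the level of Krt15 was flat, and its log2 difference was -0.71 (limma-trend adjusted p = 0.566). Reads of Krt14, Krt16 and Krt17, which are close in sequence, may have been shared out among them during alignment or counting, and likewise those of Krt5 and the Krt6 genes.

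Krt6a and Krt6b, stress-inducible type II keratins outside the member rule because of their letter, had the same leading library. Krt6a had 0.767, 4.78 and 0.0945 against 0.126, 0.214 and 0.245, and Krt6b was highest in Atg5 WT replicate 2 at 0.745.

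None of the 12 keratins tested passed over all genes, where limma-trend called 0.00811% of 12332 genes. At an unadjusted p under 0.05 there was 1, Krt17, against 5.17% of tested genes in the lower direction and 4.84% in the higher, and limma-voom on recovered reads also called 0. All 12 had a lower mean log2(FPKM + 1) in the libraries labelled Atg5 KO, where 62.8% of tested genes did, and 8 were lower by at least 1 on the log2 scale, where 4.99% of tested genes were. Members of low level passed the filter largely through the libraries labelled Atg5 WT, so these counts only describe. The median log2 difference was -1.54 for the luminal set and -1.60 for the basal set, against -0.09 over all tested genes. Without Atg5 WT replicate 2 these medians were -0.94 and -0.93, the latter over the 3 basal genes still past the filter.

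**Figure D2:**
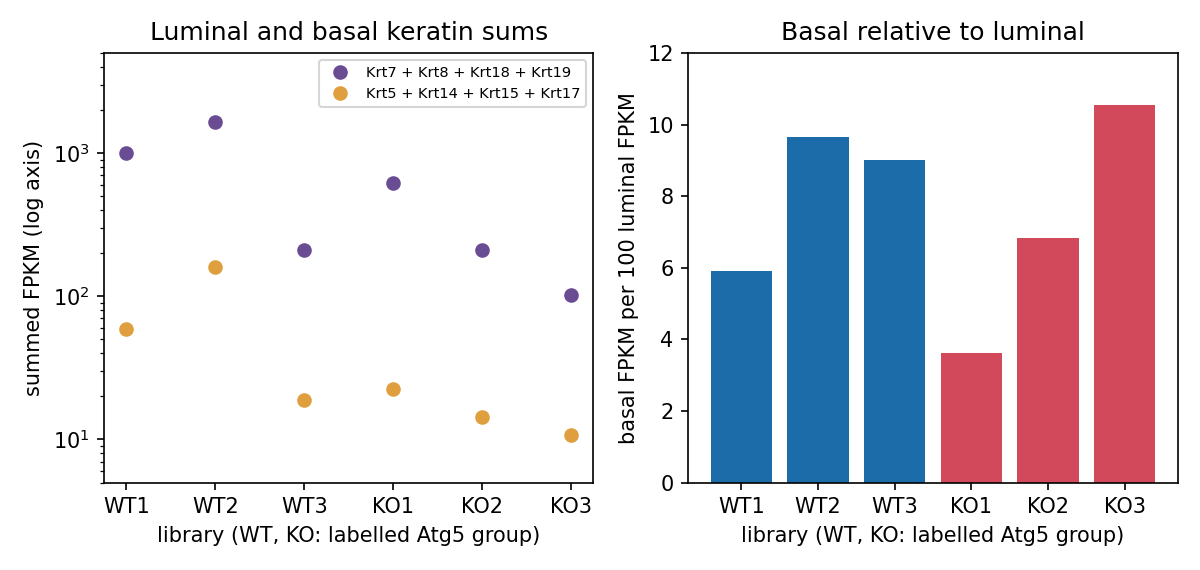
Left, summed FPKM of the luminal set and of the basal set in each library on a log axis, with 1 point per library. Right, basal FPKM per 100 luminal FPKM, with bars from 3.63 in Atg5 KO replicate 1 to 10.55 in Atg5 KO replicate 3.

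The balance of basal to luminal keratin differed between libraries, and the groups overlapped. Luminal sums were 998, 1655 and 209 against 622, 209 and 102, and basal sums 59.1, 160 and 18.8 against 22.6, 14.3 and 10.8. Basal FPKM per 100 luminal FPKM was 5.92, 9.67 and 9.0 under the Atg5 WT label and 3.63, 6.84 and 10.55 under the Atg5 KO label. The lowest and the highest value both came from the libraries labelled Atg5 KO, whose mean of 7.01 ± 3.46 lay within the spread of the other group (8.20 ± 2.00). Atg5 KO replicate 1 combined the third highest luminal sum with a basal sum close to that of Atg5 WT replicate 3. Inside the basal set, Krt5 was 0.344 to 0.471 times Krt14 in 5 libraries and 0.711 in Atg5 KO replicate 3, where Krt5 had 166 reads and Krt14 had 181.

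Epithelial RNA other than keratins moved with these genes. An epithelial score, the mean log2(FPKM + 1) of 20 epithelial genes without keratins, was 4.81, 5.75 and 2.74 under the Atg5 WT label and 4.39, 2.90 and 2.52 under the Atg5 KO label. The list had 19 of 19 tested members lower, a median log2 difference of -1.15 (-0.49 without Atg5 WT replicate 2) and 0 members called, and none of the 20 stood at 0 in any library. The summed FPKM of the list ran from 227 to 2159 under the Atg5 WT label and from 168 to 799 under the Atg5 KO label. Its 3 members of smallest p were the tight junction gene Cldn4 (adjusted p = 0.528), the cadherin gene Cdh1 (0.532) and the transcription factor gene Ovol1 (0.533), all by limma-trend. Krt8 divided by Epcam, an epithelial adhesion molecule, was 1.92, 1.79 and 2.08 against 1.89, 1.88 and 1.62.

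**Figure D3:**
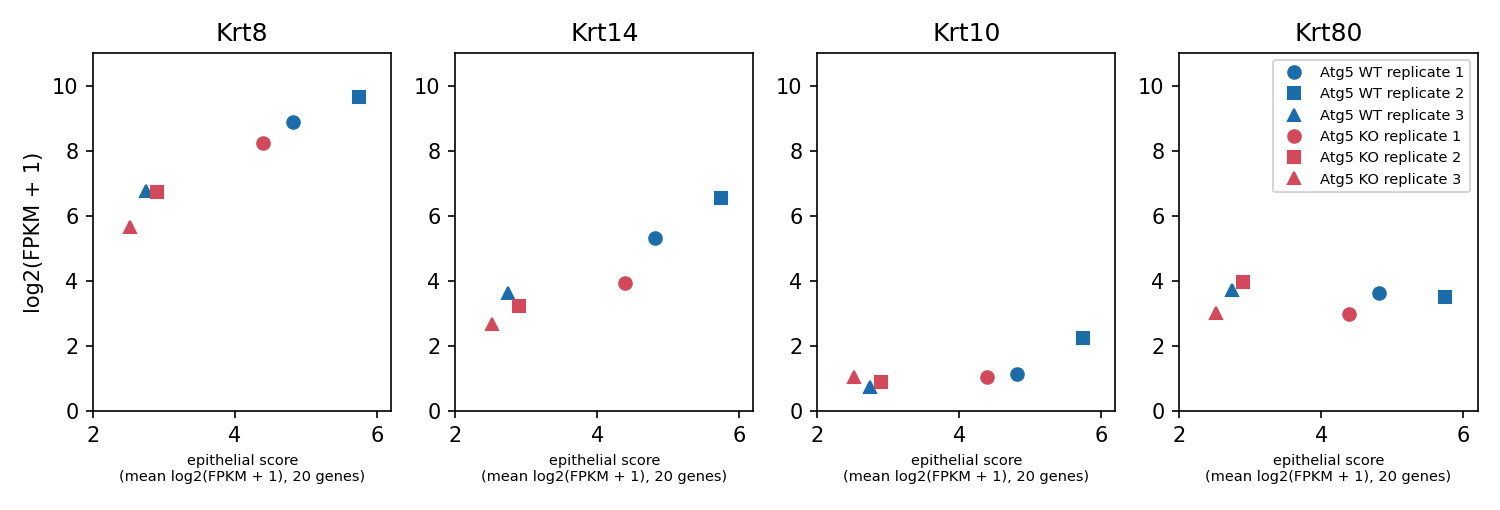
Level of Krt8, Krt14, Krt10 and Krt80 as log2(FPKM + 1) against the epithelial score of each library, with 1 point per library. Krt8 and Krt14 are highest where the score is 5.75 and lowest where it is 2.52, Krt10 stands out at the highest score, and Krt80 shows no such order.

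With the epithelial score as a covariate in the same limma-trend fit, the differences between groups were smaller for 11 of the 12 genes. Krt8 then differed by -0.33 (SE 0.24, adjusted p = 0.57) and Krt18 by -0.25 (SE 0.21, adjusted p = 0.618), and the median of the luminal set was -0.29. Krt14 differed by -0.88 (SE 0.21, adjusted p = 0.426), Krt17 by -0.86 (SE 0.37, adjusted p = 0.432) and Krt5 by -0.73 (SE 0.40, adjusted p = 0.493). Krt15 differed by -0.21 (SE 0.48, adjusted p = 0.86), within the range of the luminal genes, and the median of the basal set was -0.79. The exception was Krt80, at -0.42. None of these passed over all genes. With the same covariate the median was -0.85 for the fibroblast genes described below and -0.24 for basal and myoepithelial genes without keratins. Whether any of these sets differ from each other in this fit was not tested. The score includes Epcam. By the likeness measure described below, its profile stood 0.0743 from the luminal set and 0.612 from the basal set. A score that moves with luminal keratins lessens their differences by construction, and need not do so equally for basal keratins. The values with the covariate therefore only describe.

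**Figure D4:**
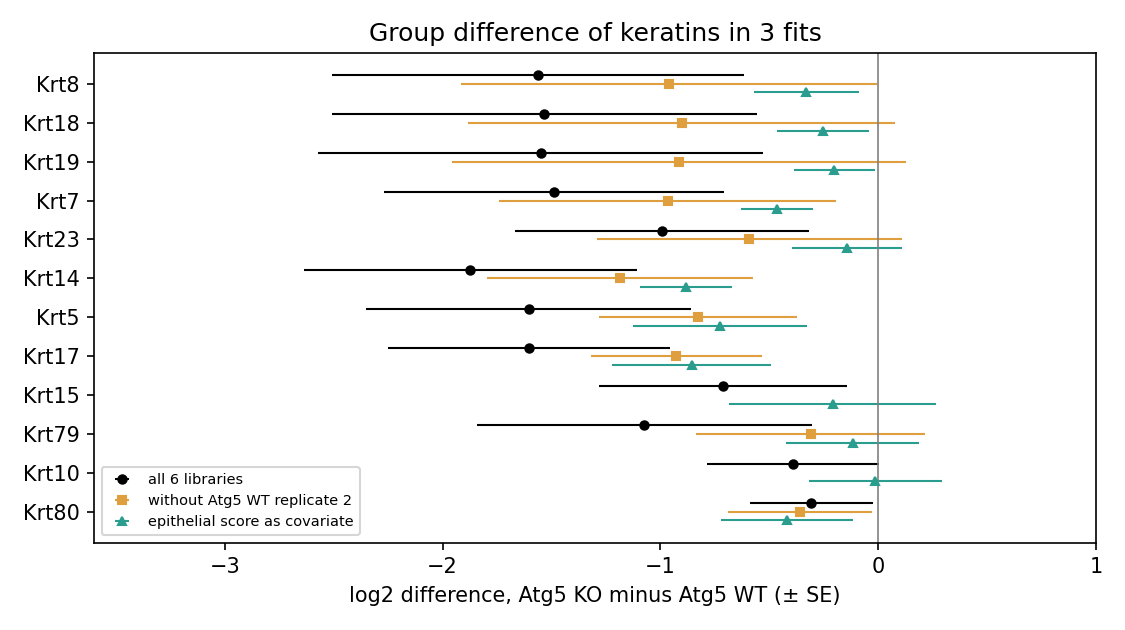
Log2 difference of each keratin, labelled Atg5 KO minus labelled Atg5 WT, with bars of ± SE, in the fit of all 6 libraries, without Atg5 WT replicate 2 and with the epithelial score as a covariate. Krt15 and Krt10 fall under the filter without Atg5 WT replicate 2 and have 2 points, and with the covariate the luminal set lies between -0.20 and -0.47 while the basal set runs from -0.21 for Krt15 to -0.88 for Krt14.

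Krt80, a type II keratin found in many epithelia, was the 1 keratin of the 12 that was not highest in Atg5 WT replicate 2. It had an FPKM of 11.5, 10.45 and 12.1 against 6.92, 14.6 and 7.02. Its level was nearly the same in the library with the most luminal keratin and in the one labelled Atg5 WT with the least. Krt80 therefore ran from 0.0131 times Krt8 in Atg5 WT replicate 2 to 0.143 times Krt8 in Atg5 KO replicate 3, and was the third most abundant keratin per length outside the luminal set in the mean of the 6 libraries. Its log2 difference was -0.31 (SE 0.28, limma-trend adjusted p = 0.599). Krt10, a type I keratin of differentiating epidermis, had 1.20, 3.76 and 0.687 against 1.06, 0.852 and 1.06, highest in Atg5 WT replicate 2, and a log2 difference of -0.39 (limma-trend adjusted p = 0.625). Krt79, a type II keratin of hair follicle and sebaceous ducts, had 2.501, 10.8 and 0.661 against 2.41, 0.506 and 0.431 (log2 difference -1.07, limma-trend adjusted p = 0.547). Without Atg5 WT replicate 2 the difference of Krt79 was -0.31.

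The other 35 keratins stayed under the mean FPKM of 1, and 29 of them had at least 1 read. The highest means were those of Krt16, Krt13 and Krt83. Krt16, a stress-inducible type I keratin, had an FPKM of 0.938, 3.41 and 0.477 against 0.211, 0.154 and 0.0321, from 28, 103 and 14 reads against 7, 5 and 1, and its groups did not overlap. Krt13, a type I keratin of internal stratified epithelia, had 79, 50 and 0 reads against 0, 8 and 17. Krt83, a type II hair keratin, had 33, 46 and 12 reads against 27, 9 and 4. Over all 47 genes the groups did not overlap for 4, all lower. Among tested genes 9.41% were lower and 9.2% higher without overlap, but those shares leave out genes under the filter. The 4 keratins were Krt17, which was tested, and Krt16, Krt73 and Krt222, which were under the filter. Krt222 had at most 3 reads in any library, and Krt73 had 0 in every library labelled Atg5 KO.

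**Figure D5:**
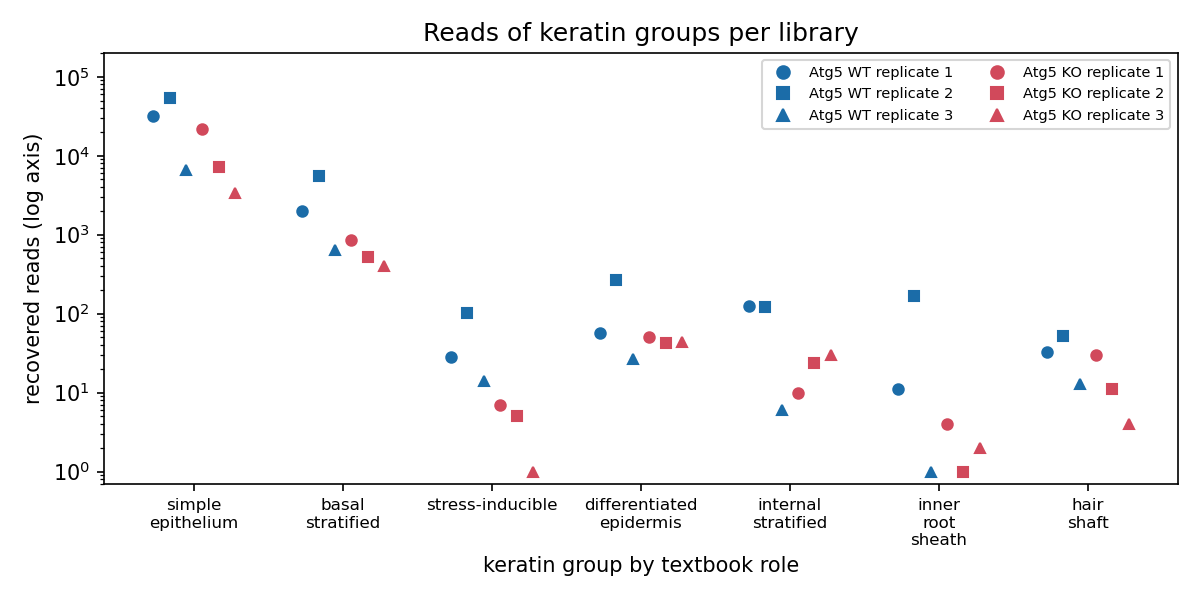
Recovered reads of keratin groups in each library on a log axis, with the genes grouped by the tissue in which they are known. Atg5 WT replicate 2 has 166 reads of inner root sheath keratins, and the other 5 libraries have 1 to 11.

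Inner root sheath keratins were read mainly in the library labelled Atg5 WT replicate 2, and most of those reads came from Krt73. Grouping by tissue was made after the values were seen. The 8 keratins of the inner root sheath, the layer that guides the growing hair, had 11, 166 and 1 reads against 4, 1 and 2, and 7 of the 8 had a read in Atg5 WT replicate 2. Krt73 alone had 122 of those reads, at an FPKM of 2.92, against 3 or fewer in every other library. Krt1, the type II keratin of differentiated epidermis and partner of Krt10, had 5, 109 and 0 reads against 1, 5 and 0. Keratins of the hair shaft had 33, 52 and 13 reads against 30, 11 and 4, most of them from Krt83. Of the 41 keratins with any read, 31 were highest in Atg5 WT replicate 2, which had reads of 36 keratins where the others had 20 to 27, although its depth of 19302509 reads was within the range of the others. A total of 6 keratins, 5 of the hair shaft and Krt74 of the inner root sheath, had 0 reads in all libraries, and 0 reads allow up to 3, an FPKM of at most 0.121 in any library for the shortest of them.

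Partners of keratin filaments were measured from a fixed list of desmosome and linker genes. Of 13 tested genes 12 were lower in mean, with a median log2 difference of -1.01 (-0.49 without Atg5 WT replicate 2) and 0 called. Plec, which encodes the linker plectin, had an FPKM of 19.7, 15.2 and 22.8 against 12.1, 14.96 and 10.1 without overlap of the groups (adjusted p = 0.492). Pkp1, a desmosomal plakophilin, had 2.80, 4.56 and 0.673 against 0.900, 0.258 and 0.108 (adjusted p = 0.492), and Dsp, the desmoplakin that ties keratins to desmosomes, had 6.37, 12.3 and 1.27 against 2.39, 0.981 and 0.516 (adjusted p = 0.494), each by limma-trend. Plec was lowest among the libraries labelled Atg5 WT in replicate 2, the reverse of the keratins.

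Vim, which encodes vimentin, the intermediate filament of macrophages, ran differently from the keratins. It had an FPKM of 843, 341 and 1180 against 683, 977 and 840, lowest where keratins were highest. Of 6 tested intermediate filament genes other than keratins, 5 were lower, with a median of -0.30 (-0.48 without Atg5 WT replicate 2) and 0 called. Lmna, the gene of the nuclear lamins A and C, had 269, 259 and 233 against 143, 169 and 93.8, without overlap of the groups, and did not pass (log2 difference -0.94, limma-trend adjusted p = 0.492). Nes, which encodes nestin (adjusted p = 0.501), and Lmnb1, a nuclear lamin (adjusted p = 0.532), had the next smallest p by limma-trend.

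Markers of other cells also differed between the libraries, and their part in the keratin values was not tested apart from the covariate above. All 8 fibroblast genes were lower, 7 without overlap where 9.41% of tested genes were, with a median of -1.65 (-0.92 without Atg5 WT replicate 2) and a summed FPKM of 250, 977 and 147 against 120, 92.4 and 39.3, and none stood at 0. The 3 of smallest p were Pdgfrb, Col1a1 and Col1a2 (limma-trend adjusted p = 0.492 for each). Of 14 basal and myoepithelial genes without keratins 7 were tested and all were lower, with a median of -1.22 (-0.58 without Atg5 WT replicate 2), 2 without overlap and 0 called, led by Acta2, Mylk and Sfn (limma-trend adjusted p = 0.492, 0.492 and 0.5). Their summed FPKM was 42.8 to 281 under the Atg5 WT label and 19.8 to 83.2 under the Atg5 KO label, with at most 2 at 0 in a library. Trp63, the basal cell transcription factor, had 0.792, 2.81 and 0.149 against 0.634, 0.135 and 0.150 and was named after its values were seen. Of 11 macrophage genes 10 were higher in mean, with a median of 0.87 (0.34 without Atg5 WT replicate 2) and 0 called, among them Mertk, Aif1 and C1qb (limma-trend adjusted p = 0.492, 0.492 and 0.512). Of the genes for antigens excluded in the sort, Ly6g was at most 0.308, while Ly6c1, also known from endothelium, had 19.6, 45.2 and 6.50 against 11.2, 5.71 and 3.45, and Ly6c2 had 0.861, 0.483 and 0.875 against 5.71, 0.702 and 5.29 (limma-trend adjusted p = 0.505 and 0.492).

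Genes whose profile was most like each set were found among 8252 genes that averaged an FPKM of at least 5, by the root mean square difference of mean-centred log2(FPKM + 1) over the 6 libraries. Closest to the luminal set was Epcam, at 0.0743, followed by the signalling inhibitor gene Spry2 (0.0979), Traf4 (0.121), Clu, which encodes clusterin (0.130), and the claudin gene Cldn7 (0.131). Closest to the basal set were Ctgf, a connective tissue growth factor gene (0.133), Cpxm1 (0.176), Prkcdbp (0.204), 2610528A11Rik (0.217) and the collagen cross-linking enzyme gene Loxl1 (0.219). For comparison, Krt14 stood at 0.337 from the mean of its own set and Krt80 at 1.38 from the luminal set. Epcam stood at 0.612 from the basal set. Over the 6 libraries the summed FPKM ranged 12.8-fold for the epithelial list and 24.8-fold for the fibroblast list. With libraries that share such ranges, likeness is a description of these libraries.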

How the data were processed

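The deposited table holds FPKM values in 1 column per library for 35275 genes, per the file headers, with symbols, positions and gene lengths. The submitters' processing notes name STAR and CASAVA, with mm10 as build. No counter, strand setting, annotation or filter is named in those notes or headers, so these remain unknown here. FPKM times gene length gave whole multiples of 1 read for 100.0% of values in each library (tolerance 0.01 read), which gave the recovered reads. Reads of close paralogs and overlapping genes are less certain.

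Values were transformed to log2(FPKM + 1) with a pseudocount of 1, which understates changes of low genes. Genes averaging an FPKM of at least 1 were kept, and limma-trend (limma 3.58.1, R 4.3.3) was fitted over all 12332 genes with group as the only term, two-sided, with Benjamini-Hochberg adjustment over all genes and a threshold of 0.05. Log2 differences are Atg5 KO minus Atg5 WT as labelled, from 3 libraries each. The fit was tested on simulated data in which genes varied independently, so that test does not cover shifts shared by many genes of a library. Intervals for 0 reads cover counting error only.

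The genes, sets and lists were chosen with earlier results of these data known. Named by rule were keratins past the filter, both sets, the 3 highest keratins under the filter, up to 3 genes of smallest p per list, 5 genes most like each set, Krt6a, Krt6b, Lyz2 and Atg5. Other genes, and the grouping by tissue role, were chosen after the values were seen. Of the list entries, Adgre1 matched as Emr1 and Eppk1 was not matched. Alternatives were other pseudocounts and filters, median-ratio scaling, quantile normalization, limma-voom, the replicate block, the covariate and leaving out each library.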

Additional observations from a re-analysis of the deposited data

How the results depend on the processing

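No keratin passed over all genes under any of the 15 alternatives, and the 12 keratins tested above kept a negative difference in each alternative that tested them. The luminal median ran from -1.58 with a pseudocount of 0.1 to -0.29 with the epithelial score as a covariate, and from -2.40 to -0.94 on leaving out each library. The basal median ran from -1.89 with limma-voom to -0.79 with the covariate, and from -2.26 to -0.93 on leaving out each library. The smallest limma-trend adjusted p of a keratin, 0.128, was without Atg5 WT replicate 3. The median of all tested genes was -0.09, and turned to 0.0265 with median-ratio scaling, 0.0322 with quantile normalization and 0.0117 with the covariate, while the luminal median was -1.41 and -1.48 under those scalings. The count of all genes called was 1, and 0 with no filter, with median-ratio scaling and with the replicate block, and 0 to 18 on leaving out each library, the 18 without Atg5 WT replicate 2. The labels do not state whether replicate numbers pair the libraries. Deviations of same-numbered libraries correlated at 0.212, -0.376 and 0.590 over 12332 genes, which can neither show nor exclude a pairing. The highest correlation, 0.728, joined differently numbered libraries, Atg5 WT replicate 2 and Atg5 KO replicate 1. With the replicate block, 0 keratins were called. Each replicate number holds 1 library of each group, so the block leaves the luminal and basal medians at -1.54 and -1.60 by design. Unadjusted p in the limma-trend fit with the block was 0.0261 for Krt7, 0.0348 for Krt8 and 0.0444 for Krt18. It was 0.0223 for Krt14, 0.0198 for Krt17 and 0.0544 or more for the other keratins tested. The share of all tested genes at such a p with the block was not counted, so these values only describe. Depth limits keratins of few reads, such as Krt23 with 3 and Krt16 with 1 in Atg5 KO replicate 3.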
